A study of Mus musculus with 36 samples.

Results

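Bins of H3K9me3 signal that the authors annotated to a 5′ UTR, to a 3′ UTR or to the stretch just past a gene were taken from 6 deposited tables of mouse liver ChIP-seq. A bin is a piece of a called peak, at most 501 bp long. It was kept where it lay on chromosomes 1 to 19 and its annotation began with 5′ UTR, 3′ UTR or Downstream, so the choice among listed bins used no measured value. How the authors chose the bins that a table lists is not given in the sources used here. Of 786789 rows in the 6 tables, 765166 were autosomal and 25659 fell in these classes: 22194 in 3′ UTRs, 2780 in 5′ UTRs and 685 Downstream, which the annotation defines as up to 300 bp past a gene's end. Counted once per position, they were 14672 of 404382 autosomal bins (12785 in 3′ UTRs, 1497 in 5′ UTRs and 390 Downstream).

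The livers came from male and female offspring of dams fed chow (control) or a Western-style diet before and through pregnancy and lactation (maternal obesity, MO). Pups were studied before weaning at 3 weeks, or at 8 weeks after a move to chow. All groups, controls included, were fed mice with a floxed Reg3g allele (Reg3g fl/+ or Reg3g fl/fl) on a C57BL/6J background, sired by wild-type C57BL/6J males. The 8 ChIP groups of 4 animals were CF and CM (control females and males) and MF and MM (MO females and males), each at 3 and at 8 weeks, and 4 input libraries were not used. Each sex had 3 tables: control mice of both ages (the age table), and MO with control at 3 and at 8 weeks. A table gives for each bin an average over its 8 libraries in log2 CPM (read counts scaled to a common library total). The tables used here give averages and not single libraries, so the values below have no SD, test or p-value, and no difference has a replicate check. The age table of a sex shares control libraries with each of its MO tables. The MO tables at 3 and at 8 weeks share no library, and neither do the female and male tables.

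H3K9me3, trimethylation of lysine 9 of histone H3, marks compacted, silent chromatin and is bound by HP1 proteins. It is known for covering repeats, clusters of receptor genes and the genes of KRAB zinc finger proteins, where it lies over the last exon with the zinc finger coding sequence and the 3′ UTR. A 5′ UTR runs from the transcript start to the start codon, and a 3′ UTR from the stop codon to the poly(A) site, which is usually preceded by a poly(A) signal such as AATAAA.

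The 5′ UTR bins mostly straddled a start codon, and the windows below show this for named bins among the strongest or most age-changed. Of the others described below, Tenm3, Zfp949, D130040H23Rik, Olfr317 and Hpcal1 had no such start codon window in their bin. In the tables of control mice of both ages, 316 of 440 female bins (71.8%) and 357 of 491 male bins (72.7%) held the start codon of their host transcript with its surroundings. The windows are read from RefSeq's copy of GRCm38 on the coding strand, with the start codon in capitals: Gm10775, a predicted gene (chr13:65259875-65259904, plus strand), Zfp146, a zinc finger gene (chr7:30162598-30162627, minus strand), Palld, the actin-binding protein palladin (chr8:61550029-61550058, minus strand), Zbed3 (chr13:95336058-95336087, plus strand), Vamp9 (chr5:99906316-99906345, plus strand) and Eef2k, the kinase of elongation factor 2 (chr7:120858408-120858437, plus strand).
Gm10775: aagcccactgccATGctggaactccaacga
Zfp146: tcttccactcagATGtcacagctcagccag
Palld: ccctcggagcccATGagcgctctggcctcc
Zbed3: actgcagaaggaATGaagagtaaaaagccc
Vamp9: ggcctgctggttATGacgatcacctacagc
Eef2k: cgcccccgcaacATGgcagacgaagacctc

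The Downstream bins began a short way past an annotated transcript end, and the next windows show the poly(A) signal of that end in capitals for 4 of the bins described below. They lie before the bins, at Zfp420 (chr7:29877262-29877291), Zfp930 (chr8:69230502-69230531), Lrif1 (chr3:106736533-106736562) and Zfp809 (chr9:22243318-22243347), all on the plus strand of GRCm38 and from RefSeq. AATAAA stood in the last bases before the transcript end for 56 of 99 female bins (56.6%) and 88 of 145 male bins (60.7%) of this class in the age tables. It did so for 175 of 585 female and 228 of 718 male 3′ UTR bins that held a transcript end.
Zfp420: agatcactgaatAATAAAacttcccttaag
Zfp930: cttggaacatggAATAAAcatgttttaact
Lrif1: aaaatctattatAATAAAtgtattcagata
Zfp809: accgtaaggctaAATAAAcactccattttt

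The 3′ UTR class was the largest in every table. The 3′ UTR bins made up between 2.79% (4431 of 158810, MO table of males at 3 weeks) and 3.05% (3090 of 101386, MO table of males at 8 weeks) of autosomal bins. The 5′ UTR bins ranged from 0.326% (517 bins) to 0.408% (447 bins), and Downstream bins from 0.0712% (78 bins) to 0.105% (166 bins). In the age tables the counts were 3355 3′ UTR, 440 5′ UTR and 99 Downstream bins of 114317 in females, and 4160, 491 and 145 of 147360 in males. By chromosome, the 3′ UTR share of bins was lowest on chromosome 14 in females (2.15%) and on chromosome 4 in males (2.28%), and highest on chromosome 19 in females (3.97%) and on chromosome 9 in males (3.42%).

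The annotated classes were compared with the gene models of GENCODE M21, a release of the same GRCm38 build, by finding the gene whose UTR holds the bin (the host). A host was found for 3339 of 3355 female and 4139 of 4160 male 3′ UTR bins in the age tables. In females 62.9% of the 3′ UTR bins with a host also held coding bases of that gene and in males 58.9%. Only 35.0% and 38.2% lay wholly in 3′ UTR, and 17.5% and 17.3% held the annotated end of a host transcript. The median bin had 256 bp of 3′ UTR in females and 257 bp in males. In 863 female bins (25.8%) and 1066 male bins (25.8%) the only 3′ UTR belonged to transcripts classed as nonsense-mediated decay, in which the stop codon comes early. In 34.7% and 32.7% of the bins some UTR bases were also coding bases of the same gene.

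The 5′ UTR bins were in large part coding. Of those with a host, 355 of 433 (82.0%) in females and 399 of 487 (81.9%) in males held coding bases, and 4 in each sex lay wholly in 5′ UTR. Their median 5′ UTR content was 59 bp in females and 57 bp in males. In 29.8% and 34.3% of the bins with a host some UTR bases were also coding bases of the same gene. The annotation places promoters first, up to 3000 bp from a start site, and the nearest 5′ UTR bin to a start site was at 3023 bp in females and 3010 bp in males. By the authors' distances these bins thus lie more than 3000 bp from the nearest start site, at a median of 8744 bp and 9103 bp. The distance to the start of the host transcript was not measured.

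Downstream bins followed genes of a single strand almost without exception. All 99 female bins and 142 of the 143 male bins with a host in the age tables followed a gene on the plus strand, against 47.6% and 48.9% of the 3′ UTR bins and 49.8% of the 20807 coding genes of the annotation. Among bins that the tables call Distal Intergenic, 817 positions lay within 300 bp past a minus-strand transcript end and 435 past a plus-strand end. The cause was not tested. Over the 6 tables, 388 of the 390 Downstream positions followed a plus-strand end and 2 a minus-strand end.

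**Figure D1:**
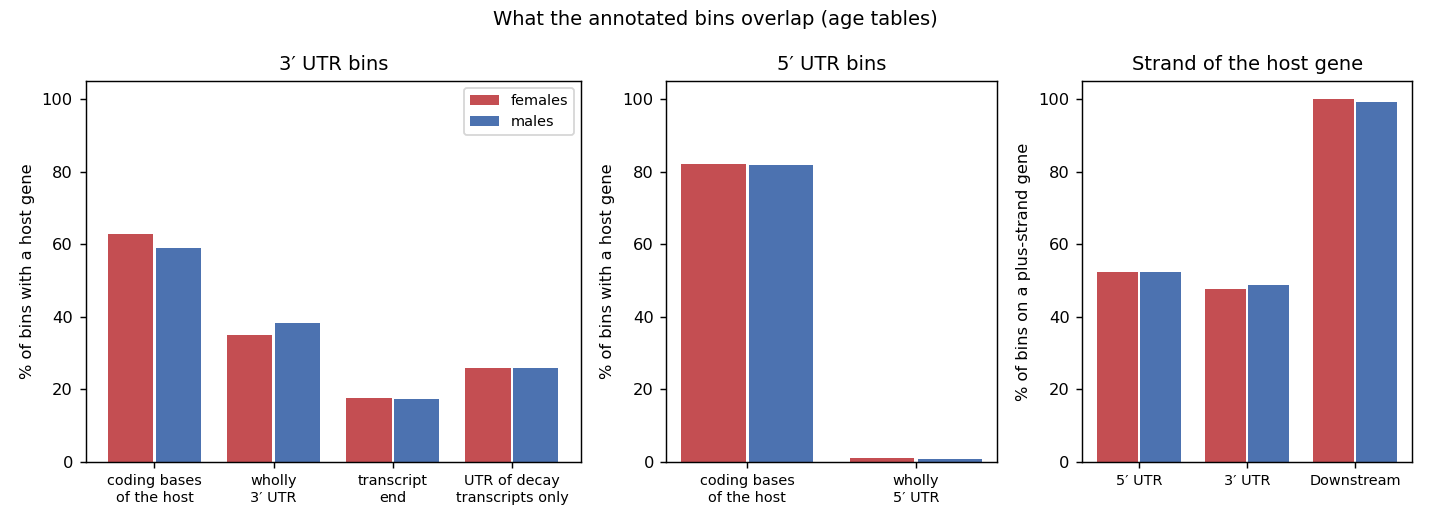
Share of bins in the age tables, in percent of bins with a host gene, for females and males. The left panel covers 3′ UTR bins (62.9% of female bins held coding bases), the middle panel 5′ UTR bins (82.0%), and the right panel gives the share on plus-strand genes, which was near 100% for Downstream bins alone.

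The gene that a table names for a bin is that of the nearest start site, and it was often not the host. It was the host for 64.0% of female and 63.6% of male 3′ UTR bins, for 78.1% and 76.8% of 5′ UTR bins and for 61.6% and 63.6% of Downstream bins. The bin past the end of Zfp943, for example, was named for Zfp947, whose start is 94389 bp away. The host gives the gene names below. Host genes numbered 2794 for 3′ UTR bins and 420 for 5′ UTR bins in females, and 100 genes had both (23.8% of the 5′ UTR hosts and 3.58% of the 3′ UTR hosts). In males 139 genes had both, of 468 and 3321 hosts. The gene with the most 3′ UTR bins was D10Wsu102e on chromosome 10, with 15 in females, between 5.71 and 14.0 CPM, and 16 in males, between 3.32 and 11.6 CPM.

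In GC content and repeats 3′ UTR bins were close to exon bins. Female bins had a median GC content of 54.7% and male bins of 54.1%, where all autosomal bins had 54.4% and 53.9%, and that of 5′ UTR bins was 56.1% and 55.3%. Soft-masked repeats made up a median of 5.67% and 6.19% of the bases of 3′ UTR bins, 4.74% and 5.59% in 5′ UTR bins and 13.2% and 12.2% in Downstream bins, whereas exon bins had 5.99% and 6.19% and all autosomal bins 11.9% and 12.2%. AATAAA, searched on both strands as AATAAA or TTTATT, stood in 21.0% of female and 21.2% of male 3′ UTR bins, against 19.8% and 20.1% of all autosomal bins. The share was 43.9% and 48.3% in the 3′ UTR bins with a transcript end. It was 10.9% and 14.1% in 5′ UTR bins.

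The signal of each class sat close to that of all autosomal bins. In the age table of females the median was 6.12 CPM in 3′ UTR bins, 6.32 CPM in 5′ UTR bins, 5.88 CPM in Downstream bins and 6.25 CPM over all autosomal bins, and in males it was 4.23, 4.53, 4.05 and 4.29 CPM. On the log2 scale the 3′ UTR median lay 0.030 below all bins in females and 0.021 below in males. The 5′ UTR median lay 0.017 and 0.079 above, and the Downstream median 0.089 and 0.084 below. The order 5′ UTR, all bins, 3′ UTR held in each of the 6 tables. It turned over in the age table of females among bins that make up their whole peak, where the 3′ UTR offset was 0.0016 and the 5′ UTR offset -0.026. Strong bins were rarer in 3′ UTRs than among all bins, whereas the low end of the range was alike. In control mice, 5.54% of female and 7.55% of male 3′ UTR bins were among the strongest 10% of autosomal bins, and their range from the 10th to the 90th percentile ran from 5.16 to 7.80 CPM in females against 5.18 to 8.38 CPM for all bins. Shares in the strongest 10% were also low in introns (7.27% and 6.85%, in males below 3′ UTRs), exons (8.40% and 9.89%) and promoters (8.80% and 9.25%), and were 10.2% and 13.8% in 5′ UTRs and 13.4% and 13.1% in intergenic bins.

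**Figure D2:**
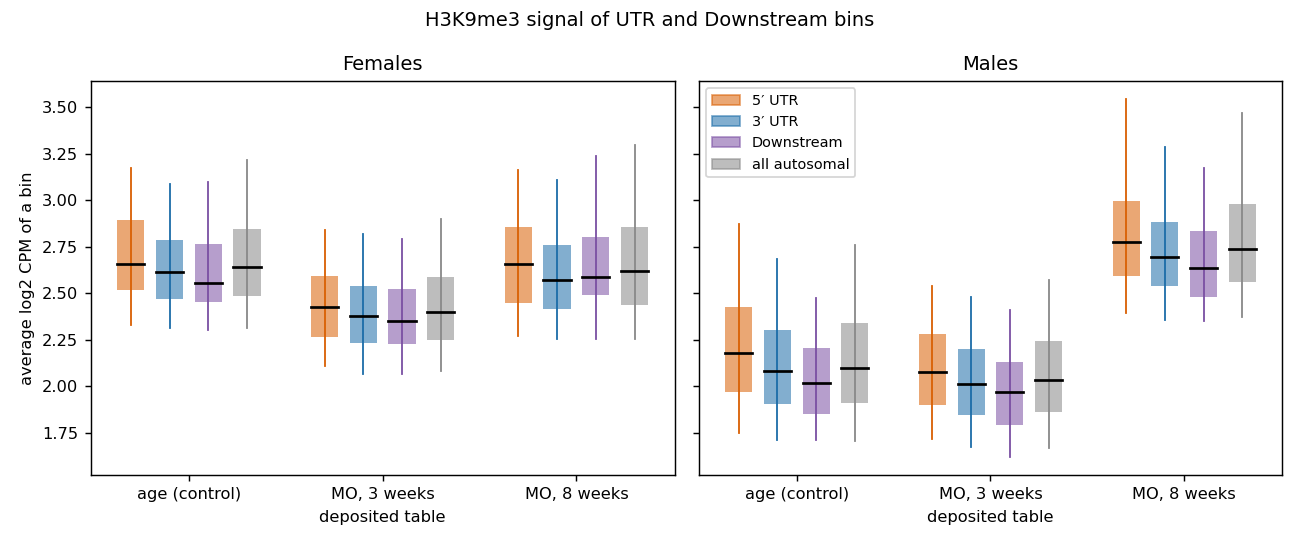
Average log2 CPM of bins by class in the 6 tables. Boxes run from the 25th to the 75th percentile of the bins, black lines are medians and thin lines run from the 5th to the 95th percentile. Each class overlaps all autosomal bins over most of its range, and levels are not comparable between tables, since each has its own CPM scale.

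Peaks that held a 3′ UTR bin were long, as were those of promoter and 5′ UTR bins. Female peaks of this kind had a median length of 1343 bp and male ones of 1196 bp, compared with 838 and 808 bp over all autosomal bins, 1240 and 1136 bp for promoter bins, 1144.5 and 1150 bp for 5′ UTR bins, 1098 and 994 bp for exon bins and 600 and 599 bp for intergenic ones. A bin was its whole peak for 20.6% and 23.5% of 3′ UTR bins, against 33.1% and 35.1% of all. Within 3′ UTR bins, those with coding bases had the higher median in all 6 tables, at 6.25 against 5.92 CPM in the female and 4.41 against 4.03 CPM in the male age table. Their GC content was also higher, at a median of 55.5% against 53.5% in females and 54.7% against 53.1% in males, and its part in the signal was not tested.

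The strongest 3′ UTR bins lay in zinc finger genes and in Trim71 and Fat1. In females they were in Zfp160 (chr17:21035114-21035614) at 22.3 CPM, in Zfp12 (chr5:143244851-143245351) at 17.9 CPM and in Trim71, a repressor of mRNAs in early development (chr9:114512607-114513107), at 17.0 CPM. In males they were in Fat1, a giant cadherin (chr8:45051067-45051567), at 19.9 CPM, in Zfp12 (chr5:143244207-143244707) at 19.3 CPM and in Zfp865 (chr7:5031777-5032277) at 18.3 CPM. All 6 were above the 99th percentile of their table. The bins in Zfp12 are 3′ UTR in nonsense-mediated decay transcripts alone and were coding over their whole length in others. In Zfp865 13.0 bp of the bin were 3′ UTR and 418 bp coding.

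The strongest 5′ UTR bins were at the same 2 genes in both sexes. Gm10775, next to Zfp369 on chromosome 13, had 21.6 CPM in females (chr13:65259716-65260216) and 19.8 CPM in males (chr13:65259411-65259911). Tenm3, a teneurin of neuronal wiring, had 19.7 CPM in females (chr8:48416832-48417332) and 16.8 CPM in males (chr8:48416914-48417378). Next came Zfp146 in females (chr7:30162455-30162955) at 15.7 CPM and Palld in males (chr8:61549870-61550370) at 12.4 CPM. In the bins of Tenm3 and Palld all UTR bases (238 bp and 199 bp) were also coding bases of the same gene. The female 5′ UTR bins of Gm10775 and of Zfp146 are pieces of peaks of 8733 bp and 15349 bp, and the male bin of Gm10775 is a piece of a peak of 8144 bp.

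Zinc finger genes also led the Downstream bins. Zfp943 had 13.2 CPM in females (chr17:22071359-22071801) and 9.45 CPM in males (chr17:22071269-22071769), Zfp420 had 11.8 and 10.1 CPM (chr7:29877309-29877809 and chr7:29877529-29878029), and Zfp930 had 11.7 CPM in males (chr8:69230654-69231154). Kbtbd3 came next in females (chr9:4331987-4332365) at 9.31 CPM. The Zfp943 bin lay 191 bp past the transcript end in females, and 86.9% of its bases were soft-masked repeat.

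Bins hosted by zinc finger genes were then set apart by gene symbol. In the 3′ UTR class they numbered 93 in 75 genes in females and 107 in 84 genes in males. Of these, 23 (24.7%) in females and 33 (30.8%) in males were among the strongest 10% of autosomal bins, against 4.99% and 6.92% of the 3′ UTR bins of other hosts. Over the 6 tables the share ran from 20.9% to 30.8% for zinc finger hosts and from 4.36% to 6.92% for other hosts. The medians in the age tables were 6.78 against 6.11 CPM in females and 4.80 against 4.22 CPM in males. By nearest start site instead of host, 21 of 86 female (24.4%) and 26 of 97 male (26.8%) 3′ UTR bins of zinc finger genes were in the strongest 10%. Among all autosomal bins whose nearest start site was of a zinc finger gene, 18.5% and 18.3% were, so strong signal near these genes was not limited to 3′ UTRs. Among 5′ UTR bins of zinc finger hosts, 2 of the 13 female and 0 of the 11 male bins were that strong, against 10.2% and 14.3% of other hosts. By the nearest start site instead of the host, 3 of 18 and 3 of 14 were. Zinc finger genes were nearest to 2.56% and 2.33% of 3′ UTR bins, 4.09% and 2.85% of 5′ UTR bins and 1.74% and 1.67% of all autosomal bins.

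**Figure D3:**
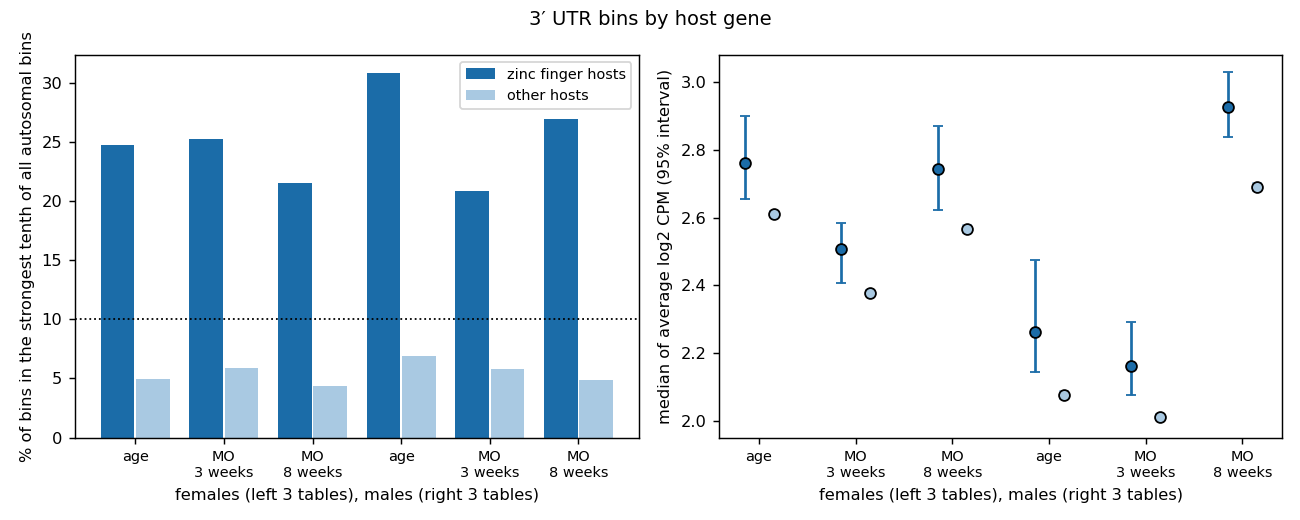
3′ UTR bins of zinc finger hosts and of other hosts in the 6 tables. The left panel gives the percentage among the strongest 10% of autosomal bins, with a dotted line at 10%, and the right panel the median average log2 CPM with its 95% order-statistic interval over bins. Zinc finger hosts are above other hosts in each table, with 24.7% against 4.99% in the age table of females.

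Other gene families held few of these bins, and most of their shares were near those among all autosomal bins. Vomeronasal and olfactory receptor genes hosted 38 3′ UTR bins in females (1.13%) and 47 in males (1.13%), with the strongest in Vmn2r10, a pheromone receptor gene, at 14.9 and 11.9 CPM. Strong bins were common near receptor genes too: by nearest start site, 21.1% and 18.8% of their 3′ UTR bins and 26.5% and 28.7% of all their autosomal bins were among the strongest 10%. By nearest start site, receptor genes had 1.13% and 1.15% of 3′ UTR bins, 2.05% and 1.83% of 5′ UTR bins (9 in each sex), 3.03% and 1.38% of Downstream bins (3 and 2) and 1.48% (1687) and 1.3% (1922) of all autosomal bins. Cytochrome P450 genes of families 1 to 4, which metabolise drugs, steroids and fatty acids, hosted 7 and 6 3′ UTR bins, among them Cyp4f14 at 6.84 and 6.08 CPM. By nearest start site they had 0.268% and 0.216% of 3′ UTR bins and 0.249% and 0.225% of all, and the hepatocyte genes below 0.0298% and 0.0721% against 0.0822% and 0.0848%. Of a list of hepatocyte genes, Serpinc1 (antithrombin) alone hosted a 3′ UTR bin in the age table of females, at 5.6 CPM, and Serpinc1, Serpina1b and Hp did in that of males, at 5.48, 3.78 and 3.82 CPM. The liver markers Alb, Ttr, Apoa1, Fgb and Serpina1a hosted 0 bins of the 3 classes in any table, and they had few bins of any class: by nearest start site, Ttr had 13 rows over the 6 tables, Apoa1 6, Serpina1a 15, and Alb and Fgb 0. Clustered protocadherins hosted 0 bins in females and 1 in males, in Pcdhb22, at 6.90 CPM, and were nearest to 80 of the 114317 female and 82 of the 147360 male autosomal bins. Of a list of genes linked to H3K9 methylation, Ehmt1 and Atf7ip each hosted a 3′ UTR bin in both sexes. By nearest start site the listed genes had 0.0894% and 0.0481% of 3′ UTR bins, near the 0.0674% and 0.0611% of all autosomal bins.

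Fewer 3′ UTR bins recurred across tables than autosomal bins in general. Of 5920 distinct 3′ UTR positions in females, 1541 (26.0%) were listed in all 3 tables, against 33.6% of all autosomal positions, and of 6871 in males 1382 (20.1%) were, against 27.6%. For 5′ UTR bins the shares were 32.2% and 26.4%, and for Downstream bins 24.4% and 19.5%. Each table lists 1 bin per peak, so a peak can be represented by a different bin in the next table. Between the sexes, 1350 of 3355 female 3′ UTR bins (40.2%) overlapped a male bin by at least 50% of both in the age tables, against 47.4% of all autosomal bins, and 215 of 440 5′ UTR bins (48.9%) and 31 of 99 Downstream bins (31.3%) did. As shares of the male bins these were 31.9%, 44.4% and 21.4%, against 36.8% of all.

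The next comparison asked how the signal of these bins differed between 3 and 8 weeks of age. A difference was computed for positions listed in both MO tables of a sex, as the 8-week minus the 3-week average log2 CPM. Each average holds 4 control and 4 MO libraries of that age. Before centring, the median over all autosomal positions was 0.22 in females and 0.63 in males, and it was set to 0, so a rise or a fall below is relative to other bins. CPM values at the 2 ages are given as deposited, each on the scale of its own table. In females 1849 3′ UTR, 275 5′ UTR and 48 Downstream positions could be compared, of 71972 in all, and in males 1721, 249 and 48, of 68657.

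The classes as a whole stayed near the centre. The median 3′ UTR difference was -0.044 in females (95% order-statistic interval over bins -0.054 to -0.030) and -0.023 in males (-0.038 to -0.010), and the 10th to 90th percentile ran from -0.34 to 0.25 and from -0.37 to 0.32. It was 0.011 and 0.0023 for 5′ UTR bins and -0.049 and -0.068 for Downstream bins, and the intervals of these 4 medians include 0. In females 14 3′ UTR bins (0.757%) were higher at 8 weeks by at least 1.5-fold, where 1.82% of all autosomal bins were, and 34 (1.84%) were lower, where 1.23% were. In males 32 (1.86%) were higher, against 3.26% of all, and 22 (1.28%) lower, against 1.65%. Of 5′ UTR bins, 3 (1.09%) were higher and 4 (1.45%) lower in females, and 8 (3.21%) were higher and 2 (0.803%) lower in males. Of Downstream bins, 1 (2.08%) was higher in females, and 2 (4.17%) were higher and 1 (2.08%) lower in males.

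Bins were also split by their mean CPM over both ages. The difference was highest among the bins with the most signal, in these classes and in all. The split holds the 8-week value that also sets the difference, and the signal of all autosomal bins spread more widely at 8 weeks (10th to 90th percentile 0.83 in log2 CPM against 0.65 at 3 weeks in females, 0.85 against 0.72 in males), so this is a description and no relation was tested. In females the median rose over each successive 25% of signal in 3′ UTR bins and in all bins, and in males it did not. Among female 3′ UTR bins in the lowest 25% of signal the median was -0.098 (570 bins) and in the highest 25% it was 0.093 (287 bins), against -0.079 and 0.15 for all autosomal bins. In males it was -0.056 and 0.14, against -0.059 and 0.17, and the next 25% above the lowest had -0.078 in 3′ UTR bins and -0.071 in all. The highest 25% held 15.5% of the female and 15.6% of the male 3′ UTR bins. The part of signal strength in the class medians was not tested.

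Bins are named below where their mean CPM over both ages was at or above the median of all positions compared, and "largest" refers to those. The largest rises of 3′ UTR bins were in males. Zfp865 went from 8.45 CPM at 3 weeks to 35.1 CPM at 8 weeks, a centred difference of 1.42, and Kcnc1, a voltage-gated potassium channel (chr7:46436961-46437461), from 4.90 to 19.2 CPM, a difference of 1.34. The other 3 male bins past 2-fold are named because the count is small. They were in Tenm3 (4.94 to 18.7 CPM), in Rbm24, an RNA-binding regulator of splicing in muscle (5.65 to 19.3 CPM), and in Prokr2, a prokineticin receptor (5.44 to 18.0 CPM). All 5 of 1721 (0.291%) were higher at 8 weeks, near the 0.22% of all autosomal bins, and 0 were lower, where 0.0189% of all bins were. No female 3′ UTR bin passed 2-fold, where 0.0292% of all bins were higher and 0.00834% lower. In females the largest 3′ UTR rises were in Polq, a DNA repair polymerase (chr16:37060718-37061218), from 5.13 to 10.5 CPM (0.82), and in Mlana, a melanocyte protein (chr19:29704571-29705071), from 4.74 to 9.53 CPM (0.79). In males the bin overlapping that of Polq differed by 0.017. Like those in Zfp12, the bins in Polq and Mlana are 3′ UTR in nonsense-mediated decay transcripts alone. Their UTR bases (501 bp and 28 bp) were all also coding bases of the same gene.

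The largest falls reached a like size in both sexes. In females Vmn2r53, a vomeronasal receptor (chr7:12600945-12601347), went from 7.60 to 4.80 CPM (-0.88) and Zfp35 (chr18:24004151-24004651) from 9.04 to 5.80 CPM (-0.86). In males Mrnip, a DNA repair factor (chr11:50196804-50197301), went from 6.55 to 5.43 CPM (-0.90) and Xdh, the xanthine dehydrogenase of purine breakdown (chr17:73890978-73891450), from 8.49 to 7.09 CPM (-0.89). The overlapping bin in the other sex also lay below the centre for Zfp35 (-0.53 in males) and Xdh (-0.56 in females). The bins in Vmn2r53, Mrnip and Xdh are 3′ UTR in nonsense-mediated decay transcripts alone. Their UTR bases (403, 81 and 189 bp) were all also coding bases of the same gene.

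Of the 5′ UTR bins, in females Vamp9 (chr5:99906109-99906609) rose from 6.00 to 11.9 CPM (0.78) and Zfp949 (chr9:88552852-88553352) from 5.37 to 10.0 CPM (0.68), while Eef2k (chr7:120858260-120858734) went from 7.79 to 5.32 CPM (-0.77) and D130040H23Rik (chr8:69291604-69292104) from 10.0 to 6.87 CPM (-0.76). Only 10 bp of the Zfp949 bin were 5′ UTR, and 47.5% of its bases were soft-masked repeat. In males Zbed3 (chr13:95336043-95336543) went from 4.39 to 12.4 CPM (0.87) and Gm47959 (chr1:83000387-83000887) from 4.23 to 10.9 CPM (0.74). The lowest male differences were those of Mical3, an enzyme that oxidises actin (chr6:121042006-121042422), at -0.57, and Ell, an elongation factor of RNA polymerase II (chr8:70578765-70579265), at -0.50. As deposited they had 5.73 CPM at 3 weeks and 5.97 at 8 weeks, and 6.01 and 6.57 CPM, but the CPM scales of the tables differ and the direction holds only relative to other bins.

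Of the Downstream bins, Zfp943 had the largest rise in both sexes, from 8.56 to 18.3 CPM in females (0.88) and from 6.34 to 16.2 CPM in males (0.72). A 3′ UTR bin hosted by Zfp943 (chr17:21991379-21991698 in females) went the other way, at -0.60 in females and -0.14 in males. Next came Zfp930 in females (chr8:69230671-69231171), from 10.3 to 15.8 CPM (0.40), and in males Lrif1, a partner of HP1 (chr3:106736815-106737315), from 6.76 to 14.5 CPM (0.47). The lowest differences were at Copz1, a coatomer subunit (chr15:103300085-103300511), at -0.36 and Slc35f6 (chr5:30659892-30660392) at -0.32 in females. In males they were at Zfp809, which recruits silencing to retroviruses (chr9:22243648-22244006), at -0.36 and at St3gal5, which makes ganglioside GM3 (chr6:72154796-72155241), at -0.29. The female bin overlapping that of Zfp809 differed by 0.21, in the other direction.

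**Figure D4:**
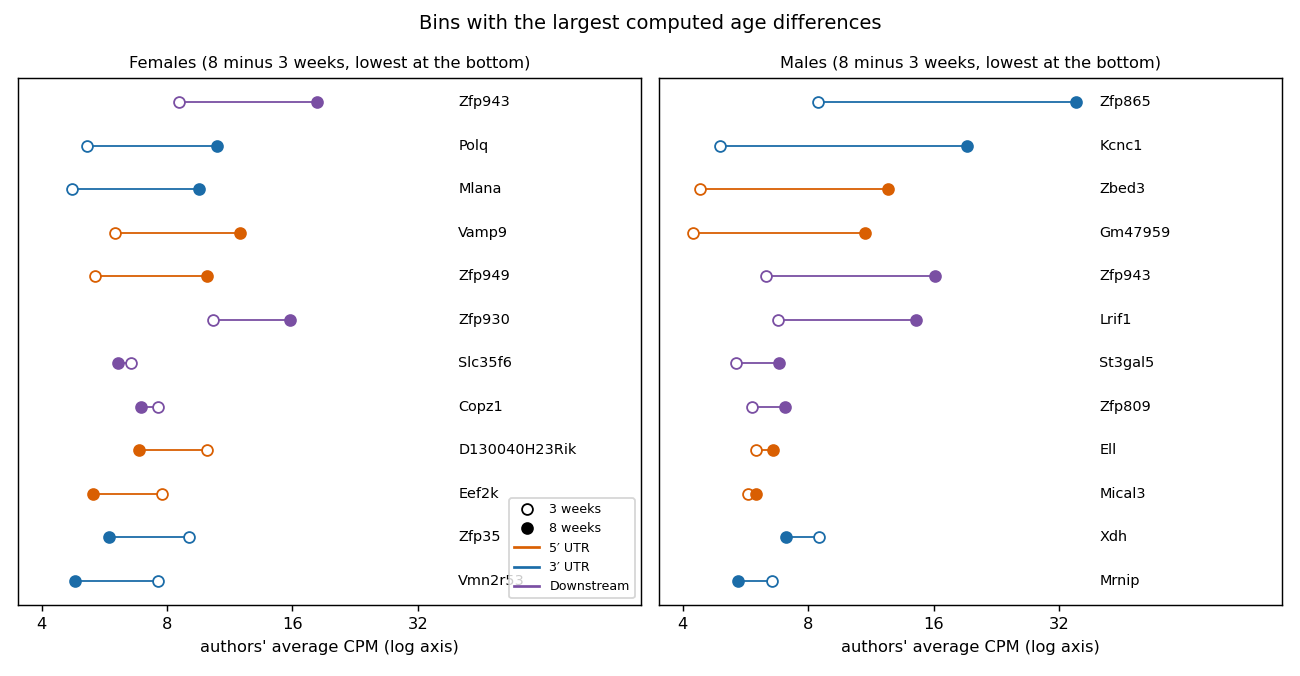
Authors' average CPM at 3 weeks (open) and 8 weeks (filled) of the bins with the largest computed age differences per class, on a log axis, for females and males. Each point is an average over 8 libraries, and rows are ordered by the centred difference, from Zfp943 (0.88) to Vmn2r53 (-0.88) in females and from Zfp865 (1.42) to Mrnip (-0.90) in males.

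The age differences of overlapping bins were then set side by side between the sexes. Over 592 pairs of 3′ UTR bins Spearman's rho was 0.31 and 352 pairs (59.5%) had the same sign, against 0.42 and 64.5% over 32465 autosomal pairs. It was 0.32 over 98 pairs of 5′ UTR bins and 0.43 over 16 Downstream pairs. These are descriptions across bins, which are not replicates, and the split by signal moves with the difference in both sexes. Of the 20 paired female 3′ UTR bins past 1.5-fold, 19 had the same sign in males, as did 1085 of 1207 such autosomal pairs, which is a like share. Past 1.5-fold in both sexes were 3 of the 592 pairs in 3′ UTRs, where 344 of 32465 autosomal pairs were. All 3 were higher at 8 weeks: Tenm3 (6.37 to 12.5 CPM in females), Adgrl3, an adhesion receptor of neurons (8.78 to 15.3 CPM in females and 5.38 to 14.7 CPM in males), and Vmn2r86 (8.64 to 17.2 and 6.18 to 15.1 CPM). The Downstream bin of Zfp943 was the only other such pair of the 3 classes.

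**Figure D5:**
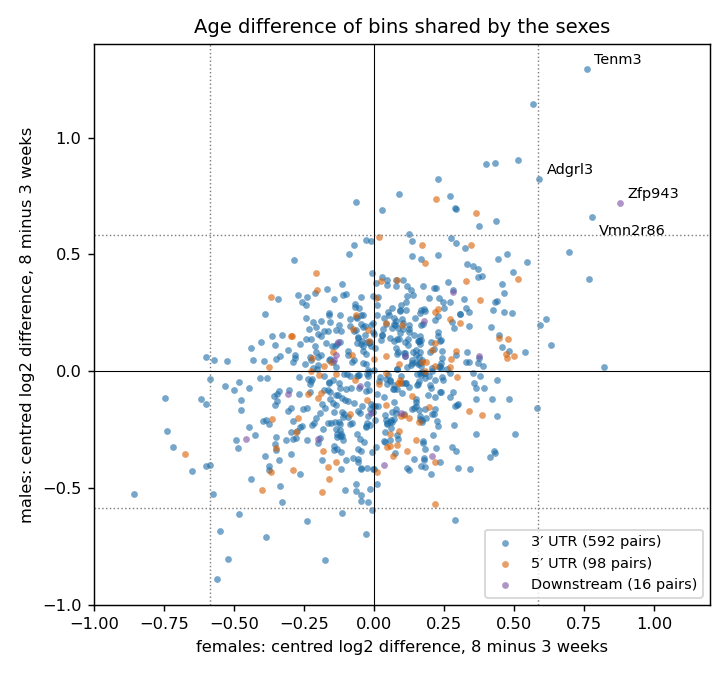
Centred log2 difference between 8 and 3 weeks of overlapping bins, females on the x axis and males on the y axis, with dotted lines at 1.5-fold. The points of 592 3′ UTR, 98 5′ UTR and 16 Downstream pairs scatter widely, with 59.5% of the 3′ UTR pairs on the same side of 0 in both sexes, and the labelled genes are past 1.5-fold in both sexes.

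The age difference was also taken for zinc finger hosts. Their 3′ UTR bins had a median of -0.010 (50 female bins) and 0.062 (49 male bins), and those of other hosts -0.045 and -0.024, and the intervals of the zinc finger medians include 0. In females 2 zinc finger bins were higher and 3 lower by at least 1.5-fold, and in males 3 were higher and 1 was lower. Other hosts had 12 higher and 31 lower of 1792 female bins, and 29 higher and 20 lower of 1662 male bins.

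The last comparison asked whether MO moved the signal of these bins. The tables do not list an MO mean, so it was formed for each position listed in all 3 tables of a sex by adding the 2 MO-table averages in CPM and subtracting the control average of the age table. The difference is the log2 ratio of the MO mean to the control mean over both ages, centred on all autosomal positions, whose median before centring was -0.25 in females and 0.44 in males. The sum joins tables with different CPM scales, which centring afterwards does not undo, so part of an age difference can enter the MO difference: the male 3′ UTR bin of Zfp865 differed by 0.023 as formed and by -0.23 with the tables first set to the same median. The median 3′ UTR difference was -0.038 in females (interval -0.052 to -0.021; 1541 bins) and -0.038 in males (-0.050 to -0.029; 1382 bins). It was 0.0064 (233 bins) and -0.043 (204 bins) for 5′ UTR bins and -0.025 (40 bins) and -0.022 (44 bins) for Downstream bins.

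Few bins passed 1.5-fold with MO. In females 7 3′ UTR bins (0.454%) were higher, where 0.551% of all autosomal bins were, and 39 (2.53%) were lower, where 1.38% were. With the 3 tables first set to the same median, 5 were higher (0.324% against 0.293% of all bins) and 12 lower (0.779% against 0.597%), so 17 3′ UTR bins passed in place of 46, and all 17 were among the 46. In males 3 were higher, against 0.153% of all bins, and 2 lower, against 0.252%, and with the tables set to the same median 5 were higher (0.362% against 0.357% of all bins) and 6 lower (0.434% against 0.599%), which include 4 of these 5. The male bins were those in Nwd1, Mrps11 and Lrrc49, which were higher, and in Usp13 and Bcl7a, which were lower. They are named because the count is small. Of 5′ UTR bins 1 female bin (0.429%), in Zfp532, and 2 male bins (0.980%), in Hpcal1 and Bean1, were lower. Of Downstream bins 1 male bin (2.27%), in Fam161a, was higher.

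Under the same floor on signal, the largest MO differences were in genes of varied roles. In females Syt6, a synaptotagmin, had the largest rise in both UTR classes, 0.71 in its 3′ UTR bin (chr3:103587208-103587708) and 0.55 in its 5′ UTR bin (chr3:103585022-103585522). The overlapping male bins differed by -0.032 and 0.039. The lowest female difference was at Nbas, a factor of vesicle transport (chr12:13583262-13583762), at -0.91, where the overlapping male bin differed by -0.37. In males Mrps11, a mitochondrial ribosomal protein (chr7:78790460-78790823), differed by 0.595 and Camkk1, a calcium-dependent kinase (chr11:73040252-73040752), by -0.51. The 3′ UTR bins in Syt6 and Mrps11 are 3′ UTR in nonsense-mediated decay transcripts alone. Their UTR bases (476 bp and 130 bp) were all also coding bases of the same gene. Of 5′ UTR bins the lowest were at Olfr317 in females (-0.49) and at Hpcal1, a calcium sensor, in males (-0.65), and the highest in males was at Krtap28-10 (0.48; 0.40 in females). Of Downstream bins the extremes were Limch1 (0.52) and 4930578M01Rik (-0.49) in females and Ankrd45 (0.16) and Psmd12, a proteasome subunit (-0.35), in males.

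The MO differences were set side by side between the sexes in the same way. Over 501 pairs of 3′ UTR bins rho was -0.0024 and 260 pairs (51.9%) had the same sign, against 0.069 and 52.8% over 29006 autosomal pairs. It was 0.19 over 87 5′ UTR pairs and 0.036 over 15 Downstream pairs. No pair of the 3 classes passed 1.5-fold in both sexes, where 2 of the 29006 autosomal pairs did, and of the 10 paired female 3′ UTR bins past it, 3 had the same sign in males, against 240 of 429 autosomal pairs.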

How the data were processed

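H3K9me3 ChIP-seq of livers was measured in 8 groups of 4 libraries. The authors aligned reads with BWA to mm10, called broad peaks with MACS2, kept those in at least 3 replicates, merged them within a sex, divided them into bins, counted reads and annotated bins with ChIPseeker. The deposited values used here are log2 CPM (counts scaled to a common library total) averaged by the authors over the 8 libraries of a table. The tables also hold the authors' own fold changes, p-values and false discovery rates for their comparisons, which were not used. Library depth is not given in the tables, so values carry no counting interval, and low bins are less precise.

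Bins were selected by annotation, and linked to genes and sequence of GRCm38 (GENCODE M21 models, RefSeq's copy of the genome) with Python 3.11.15, pandas 2.3.3, numpy 2.4.6 and scipy 1.17.1. Differences were computed between deposited averages, centred on the median of all autosomal positions, and counted past 1.5-fold. Intervals of medians are 95% order-statistic intervals over bins. They describe bins, not animals. Scripts were tested on simulated data. Members and gene lists were chosen with earlier results of these data known. Named bins were, per class and sex and with 1 bin per gene, the 3 strongest, the 2 largest rises and the 2 largest falls with age, and the largest rise and fall with MO, at or above the median signal. Alternatives were other overlaps, folds, centring, scaling, a pseudocount, bin width, bins that are a whole peak, 1 bin per gene, a floor on signal, the mean, the sex chromosomes and naming. The 4 input libraries were not used.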

Additional observations from a re-analysis of the deposited data

How the results depend on the processing

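No paired analysis was possible because the tables hold averages over libraries and no value per replicate, and for the same reason no replicate could be left out. Each cause below was not tested, unless the setting itself removes bins. Without centring, age medians became 0.17 and 0.61 (females, males) for 3′ UTR, 0.23 and 0.63 for 5′ UTR and 0.17 and 0.56 for Downstream bins, and MO medians -0.29 and 0.40, -0.24 and 0.40, and -0.28 and 0.42. The 3′ UTR counts past 1.5-fold were then 98 and 917 for age and 180 and 269 for MO. With signal at or above the median, and differences recentred on the bins kept, they were 28 for age in females and 11 and 0 for MO, with a pseudocount of 1 CPM 22 and 34 for age and 13 and 0 for MO, in whole-peak bins, likewise recentred, 20 and 14 for age and 18 and 1 for MO, and at 2-fold 0 and 5 for age and 0 and 0 for MO. Setting the tables to the same median first, chosen after seeing the data, gave 17 and 11 for MO. In whole-peak bins the signal offset became 0.0016 for female 3′ UTR, which reversed it, -0.026 for female 5′ UTR and -0.14 for female Downstream bins, and the medians -0.054 (age, female 5′ UTR) and -0.076 (MO, female 3′ UTR). With signal at or above the median the female Downstream age median was -0.15. The 3′ UTR offset was -0.041 by means in females, and -0.052 and -0.053 with 1 bin per gene. Sharing between the sexes at 1 bp of overlap was 52.0% and 41.0% for 3′ UTR, 62.3% and 54.6% for 5′ UTR and 48.5% of female Downstream bins, and with identical coordinates 0.0298% and 0.024% for 3′ UTR and 0.0% for the others. Counts of 5′ UTR and Downstream bins past 1.5-fold, which were small, moved under some settings and not under others. On the forward strand only AATAAA stood in 10.25% and 11.35% of 3′ UTR bins. Adding the sex chromosomes was tried on the number of distinct bins alone, which stayed within 1.5 times.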
